A study of Drosophila melanogaster with 2 samples.

Results

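The regions described here are 3249 pooled dmrt93B-GFP peaks that rank just below the optimal list and that have an entry in both replicate lists. They were chosen by pooled peak signal: the 30000 entries of the pooled relaxed list were sorted from the strongest to the weakest, and the ranks that follow the optimal list were taken, in a stretch as long as that list. An entry of this rank range was kept where its summit lay within 200 bp of a summit in the full list of each replicate, which 3249 entries met and 910 did not. The stronger entries are the optimal list, labelled by the authors as peaks kept by a reproducibility threshold. Its peaks are the strongest of the pooled list. By the 200 bp rule, 529 of them had no replicate 1 summit and 17 had no replicate 2 summit. A place in the optimal list thus does not mean that a peak had a summit in both replicates. The 3249 peaks are called members below, and the 910 entries of the same ranks without a summit in both replicates are called the other entries.

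Transcription factor ChIP-seq with an antibody labelled dmrt93B was performed on whole larvae of the last instar, taken when they had left the food and wandered, with male and female animals pooled. The animals carried a transgene that expresses dmrt93B with GFP fused to its C-terminus, and their age is labelled unknown. The 2 biological replicates belong to 1 group, dmrt93B-GFP, and wild-type or untagged larvae were not analysed here. Both samples are described as input controls, which goes against their antibody label and assay name, so every value stands for a library labelled dmrt93B. Both replicate lists and the pooled list hold 30000 entries each, and read depth is not given in the sources used here.

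DM-domain proteins bind DNA through an intertwined zinc module, first described in Doublesex of the fly and MAB-3 of the nematode, and the family is best known for sex-specific development. A ChIP-seq peak marks a place where immunoprecipitated fragments pile up, and its summit is the base at which the pile is highest. Relaxed lists are kept deliberately long so that the agreement between replicates can be measured along the ranks, from strong peaks that recur to weak entries that do not. In whole animals strong binding in few cells and weak binding in many cells give like signals and cannot be told apart.

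Sequences centred on a summit are shown for 8 members named below, with 1 optimal summit for comparison. The members were chosen by rank, gene list or distance, and not all of them hold a marked word or are AT-rich. All are on the plus strand of dm6, 5′ to 3′, and capitals mark a match to TTAAAA or TAATTA on either strand. The first pair is the member in an intron of tna at chr3L:10856104-10856204 and the optimal summit 205 bp away at chr3L:10855899-10855999, shown because the GC content of the window is 46.5% at the member and 20.8% at the optimal summit. The next 3 are promoter members of the ribosomal protein gene RpL21 (chr2L:22247897-22247997, GC content 28.7%), of the mitochondrial ribosomal protein gene mRpL21, shared with rept (chr3L:19255218-19255318, 40.6%), and of chrb, a TOR pathway inhibitor gene (chr3L:11493423-11493523, 44.6%). The trx intron member (chr3R:14278589-14278689, 45.5%) and the HERC2 promoter member (chrX:20394120-20394220, 23.8%) had some of the best ranks in both replicates among members over 400 bp from any optimal summit. The Alg-2 promoter member (chr3R:3623012-3623112, 26.7%) and the eIF4B promoter member (chr3L:27858302-27858402, 34.7%) lay among the farthest from the optimal list.
tna member: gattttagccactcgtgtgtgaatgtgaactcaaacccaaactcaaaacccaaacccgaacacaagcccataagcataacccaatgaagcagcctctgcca
tna optimal summit: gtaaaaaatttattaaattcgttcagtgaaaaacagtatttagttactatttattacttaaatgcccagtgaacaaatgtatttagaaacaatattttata
RpL21 member: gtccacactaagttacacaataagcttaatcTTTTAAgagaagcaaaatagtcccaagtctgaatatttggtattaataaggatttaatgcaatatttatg
mRpL21 member: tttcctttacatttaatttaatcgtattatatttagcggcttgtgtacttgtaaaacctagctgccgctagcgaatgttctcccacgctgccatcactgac
chrb member: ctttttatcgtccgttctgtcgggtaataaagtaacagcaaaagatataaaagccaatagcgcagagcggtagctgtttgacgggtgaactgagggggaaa
trx member: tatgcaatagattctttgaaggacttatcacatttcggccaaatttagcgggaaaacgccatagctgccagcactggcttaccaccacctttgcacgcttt
HERC2 member: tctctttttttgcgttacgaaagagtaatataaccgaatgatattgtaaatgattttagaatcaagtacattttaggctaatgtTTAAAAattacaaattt
Alg-2 member: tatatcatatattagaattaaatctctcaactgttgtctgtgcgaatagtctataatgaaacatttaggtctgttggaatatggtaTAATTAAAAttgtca
eIF4B member: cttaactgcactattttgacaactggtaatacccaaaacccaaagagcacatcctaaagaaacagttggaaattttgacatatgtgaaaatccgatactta

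The values that chose the members are given as a description. Their pooled signal, the peak strength as the authors' caller wrote it, ran from 59.3 to 113 with a median of 78.0, against 113 to 4440.2 with a median of 217 in the optimal list. The −log10 q value of the members ran from 1.05 to 3.23 with a median of 1.79, and 0 members reached the ceiling of 3.91. The first member lay in an intron of scrib, a scaffold protein of epithelial polarity, and ranked 3979 in replicate 1 and 5577 in replicate 2. Members of rank 4161 and 4162 lay in introns of tara and CG6966. Just outside, the last optimal peak was an intergenic summit on the X near lncRNA:CR44708, which ranked 2719 in replicate 1 and 4981 in replicate 2. Both edge peaks had a pooled signal of 113. At the lower end, the members of rank 8315 and 8317 were intergenic on the X, near lncRNA:CR44502 and CG12479. The last member lay in an intron of vn, which encodes a ligand of the EGF receptor. The first entry past the range, in a coding exon of Synd, had a signal of 59.3 like the last member and had no replicate 1 summit. The distance part of the rule had its edge at 200.0 bp: in the last 50 bp inside it there were 125 entries of the rank range in replicate 1 and 102 in replicate 2, and in the first 50 bp outside it there were 57 and 48.

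Replicate 1 decided most of the exclusions. In the rank range, 3461 entries had a replicate 1 summit within 200 bp and 3921 had a replicate 2 summit. Entries without a replicate 1 summit only numbered 672, those without a replicate 2 summit only numbered 212, and 26 had neither. Members lay close to their replicate summits, at a median of 24.0 bp in replicate 1 and 21.0 bp in replicate 2. The share of entries found in both replicates was 78.1% in the members' rank range, between 86.9% in the optimal list and 51.7% in the band of equal length that followed, and it was 24.8%, 11.8%, 5.15% and 3.10% in the next bands. In the optimal list itself 529 peaks had no replicate 1 summit and 17 had no replicate 2 summit.

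Members ranked higher in replicate 1 than in replicate 2, in a set shaped by the recovery rule. The rule left out 672 entries that lacked only a replicate 1 summit and 212 that lacked only a replicate 2 summit. The ranks below thus describe the members and not every entry of the range. The best-ranked replicate 1 summit within 200 bp had a median rank of 5471, with quartiles at 4267 and 7574, and the replicate 2 summit had a median rank of 8275, with quartiles at 6080.0 and 11662. Replicate 1 gave the better rank for 2327 members, or 71.6%. By class, replicate 1 gave the better rank for 62.2% of promoter members, 72.9% of intron members and 78.4% of intergenic members. Among the strongest entries of a replicate, as many as the optimal list holds, stood 731 members in replicate 1, 212 in replicate 2 and 77 in both. In each replicate's top ranks down to the end of the members' range stood 1232 members in both lists, and 269 stood lower in both.

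**Figure D1:**
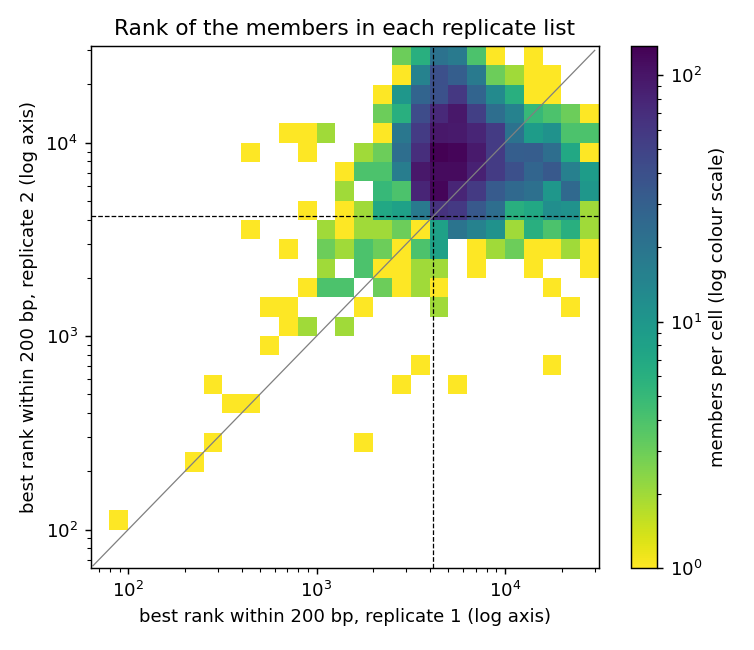
Rank of each of the 3249 members in the replicate 1 list (horizontal, log axis) and the replicate 2 list (vertical, log axis), with colour for the number of members per cell. Dashed lines mark the length of the optimal list and the grey line marks equal ranks. Replicate 1 gave the better rank for 71.6% of members, above the grey line, and the tail at the lower left of the dashed lines holds the 77 members among the strongest entries of both replicates.

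The 10 members with the best ranks in both replicates were all shoulders of stronger peaks: each lay within 208 bp of an optimal summit, where the smallest spacing of any 2 pooled summits is 199 bp. The first, in an intron of tna, a gene of the trithorax group, had a pooled rank of 7031, a replicate 1 rank of 90 and a replicate 2 rank of 109, and the optimal summit beside it had pooled rank 105. The others lay in introns of CG42327, lncRNA:CR45668, Pli, CG10939, Evi5 and chm and at the promoters of sdk, lncRNA:CR46035 and lncRNA:Hsromega. Pli encodes Pellino, a ubiquitin ligase of innate immune signalling, chm a histone acetyltransferase, and sdk an adhesion protein of epithelial vertices. A replicate summit within 200 bp of such a member can also lie within 200 bp of the optimal summit, and the replicate rank then belongs to both.

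Such neighbours were a minority of the members. An optimal summit lay within 400 bp of 283 members, and for 214 of these it lay at most 210 bp away; 5 members shared their interval with an optimal entry. These 283 members had a median GC content of 40.6%, against 35.6% in the 2966 members farther away and 30.7% at the optimal summits next to them. TTAAAA was found in 17.7% of the 283 and in 25% of the 2966. Their median rank was 3314 in replicate 1 and 4743 in replicate 2, against 5649 and 8536 for the members farther away. Of the 77 members among the strongest entries of both replicates, 75 were within 400 bp of an optimal summit. The best-ranked replicate summits of 168 members were both within 200 bp of an optimal summit, yet 3162 members had a summit in each replicate that was nearer to the member than to any optimal summit, and 87 members (2.68%) did not.

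Over 400 bp from any optimal summit, the 6 members with the best ranks in both replicates, chosen after their values were seen, lay in introns for 3, at promoters for 2 and in intergenic space for 1. The member in an intron of trx, which encodes a histone H3 methyltransferase that keeps genes active, ranked 2874 in replicate 1 and 3803 in replicate 2 and lay 614 bp from an optimal summit. The member in an intron of sbb, a transcriptional co-repressor gene, ranked 2850 and 3982, and the member in an intron of ptc, the Hedgehog receptor gene, ranked 4219 and 3992. A promoter member shared by HERC2, a ubiquitin ligase gene, and Syx16 lay at −225 bp from the HERC2 start and 35848 bp from the optimal list, with ranks of 3671 and 4278. The cert promoter member, at a ceramide transfer protein gene, ranked 4312 and 2861. An intergenic member near verm, a chitin deacetylase gene of the tracheal lumen, ranked 4291 and 3747.

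Introns held 49.4% of the members and promoters 20.8%, a placement unlike that of the optimal list. A summit was called a promoter one where a transcription start site (TSS) of the annotation lay within 500 bp. Of the 3249 members 677 were at promoters (20.8%, 95% Wilson interval 19.5 to 22.3), against 1636 optimal peaks (39.3%, interval 37.9 to 40.8), with an adjusted p of 2.00e-65. Introns held 1604 members (49.4%, interval 47.7 to 51.1), against 40.4% of the optimal peaks, with an adjusted p of 7.65e-14. Intergenic space held 842 members (25.9%, interval 24.4 to 27.5), against 18.1% of the optimal peaks, with an adjusted p of 2.46e-15. Of each replicate's own entries of these ranks it held 29.0% (replicate 1) and 16.7% (replicate 2), a wider gap. Coding exons held 28 members (0.862%) against 8 optimal peaks (0.192%), with an adjusted p of 0.000157. They held 4.26% of replicate 1's own entries of these ranks and 0.625% of replicate 2's, again a wider gap. With the rank range split at its middle, 1.57% of the weaker members lay in coding exons, whereas the share in the stronger members was 0.232%, 0.0395 points above the optimal list, with an adjusted p of 0.776. The 3′ UTR share was 1.02% in members and 0.553% in the optimal list, with an adjusted p of 0.0451. The 5′ UTR share was 0.523% against 0.385%, and the share in other exons was 1.48% against 1.01%; neither passed, with adjusted p-values of 0.430 and 0.0952. All these are two-sided Fisher's exact tests adjusted by the Benjamini-Hochberg method over 38 tests, which treat peaks as independent although some lie close together.

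In promoter, coding exon and intergenic shares the members stood between the optimal list and the weak entries, those that rank below the members. Weak entries were taken whole, with no summit asked of either replicate. Promoters held 20.8% of members and 14.3% of the 21682 weak entries, with an adjusted p of 5.56e-20. In the band of equal length after the members' range, promoters held 18.8% of all entries and 15.5% of those found in both replicates. Coding exons held 0.862% of members and 6.18% of weak entries, with an adjusted p of 4.65e-49. Intergenic space held 25.9% of members and 29.0% of weak entries, with an adjusted p of 0.000747. Intron shares were closer, at 49.4% of members and 46.5% of weak entries, with an adjusted p of 0.00440. In 4 equal groups of members, from the strongest to the weakest, coding exons held 0.123%, 0.369%, 1.23% and 1.72%, and promoters held 22.3%, 22.4%, 19.5% and 19.2%.

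**Figure D2:**
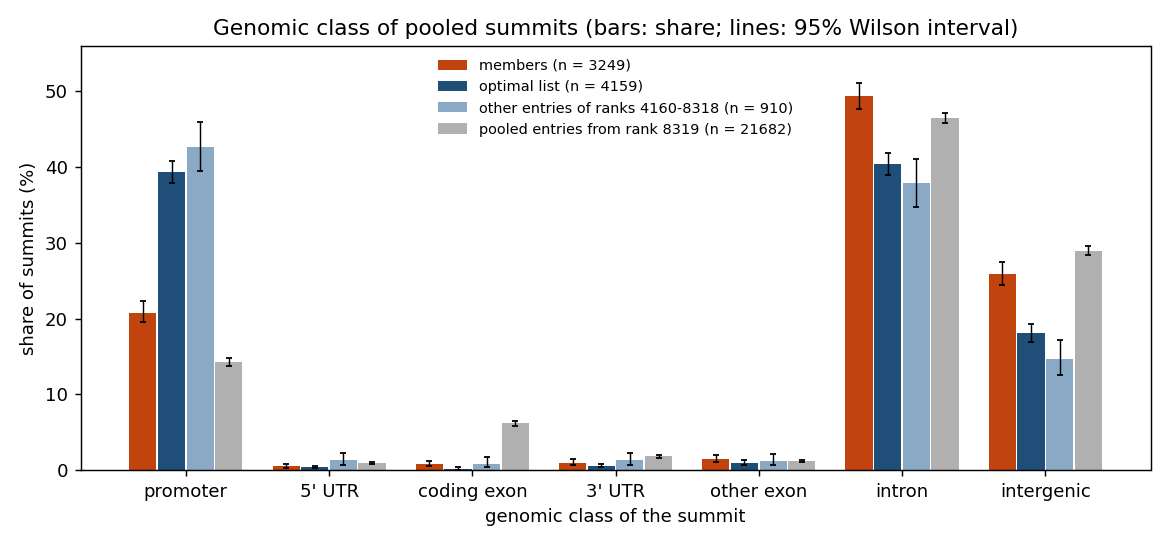
Share of summits in each genomic class (vertical, percent) for members, the optimal list, the other entries of the same ranks and the weak pooled entries; bars are shares and lines are 95% Wilson intervals. The promoter bar of members, at 20.8%, is shorter than those of the optimal list (39.3%) and the other entries (42.6%), and their intron and intergenic bars are taller.

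The promoter share also separated the members from the other entries of the same ranks, and that difference turned on replicate 1. Promoters held 20.8% of members and 42.6% of the other entries (388 of 910), with an adjusted p of 1.11e-36. Of the 672 entries that lacked only a replicate 1 summit, 49.7% were at promoters, against 18.4% of the 212 that lacked only a replicate 2 summit. Set against these 212 alone, members were 2.44 points higher, with an adjusted p of 0.456. With recovery asked of replicate 2 only, the share was 25.8% in recovered entries and 22.7% in the others, a difference of 3.10 points with an adjusted p of 0.392. Among each replicate's own entries of the same ranks, promoters held 15.9% for replicate 1 and 39.5% for replicate 2 (27.7% ± 16.7, SD, n = 2). The replicates thus differed in this class by more than members and optimal peaks did. Among those entries that lay away from optimal summits and had a summit in the other replicate, promoters held 17.8% for replicate 1 and 23% for replicate 2 (20.4% ± 3.67, SD, n = 2). Both lie below the 32.5% and 48.3% at promoters among the strongest entries of replicate 1 and replicate 2, in lists cut to the length of the optimal list. Optimal peaks with a summit in both full replicate lists, the rule applied to members, were at promoters in 35.0%, still 14.1 points above members with an adjusted p of 6.48e-38. The difference from the weaker optimal peaks, those below the median rank of that list, with 32.5% at promoters, was −11.7 points with an adjusted p of 3.14e-20.

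Promoter members also sat differently around the start site than optimal promoter peaks did. Of the 677, 497 lay upstream of the nearest TSS (73.4%, interval 70.0 to 76.6), against 84.1% of the optimal promoter peaks, with an adjusted p of 2.15e-08. Their median position was −107 bp, with quartiles at −250.0 and 13.0 bp, against −132 bp in the optimal list. Promoters with a TSS on both strands within 500 bp of the summit made up 15.2% of the promoter members (103, interval 12.7 to 18.1), against 33.9% of the optimal promoter peaks (554 of 1636), with an adjusted p of 5.56e-20. Among intron summits, 63% of the 1604 members lay in a first intron, against 68.4% of the optimal peaks, with an adjusted p of 0.00254. The intron members lay at a median of 4046 bp from the nearest TSS, against 2872 bp for intron peaks of the optimal list.

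Members lay closer to the optimal list than weak entries did. The median distance from a member summit to the nearest optimal summit was 4978 bp, with quartiles at 1521 and 15449 bp. Within 1 kb of an optimal summit lay 580 members (17.9%, interval 16.6 to 19.2) and within 5 kb lay 1628 (50.1%). Weak entries were less often near: 6.34% lay within 1 kb, with an adjusted p of 3.69e-90, and their median distance was 12794 bp. For the other entries of the same ranks the share within 1 kb was 16.2%, 1.70 points below members with an adjusted p of 0.295. This comparison depended on the recovery rule: members were at a difference of −2.55 points with recovery within 100 bp, with an adjusted p of 0.0572, 4.40 points higher within 500 bp, with an adjusted p of 0.00718, and 3.86 points higher by overlap of intervals, with an adjusted p of 0.0174. By distance, 79 members lay at up to 200 bp, 204 from there to 400 bp, 297 from there to 1 kb, and 1048 from 1 to 5 kb. Another 982 lay from 5 to 20 kb, 587 from there to 100 kb, and 52 beyond. Members lay a median of 5371 bp from the nearest other member, and 476 (14.7%) had one within 1 kb.

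**Figure D3:**
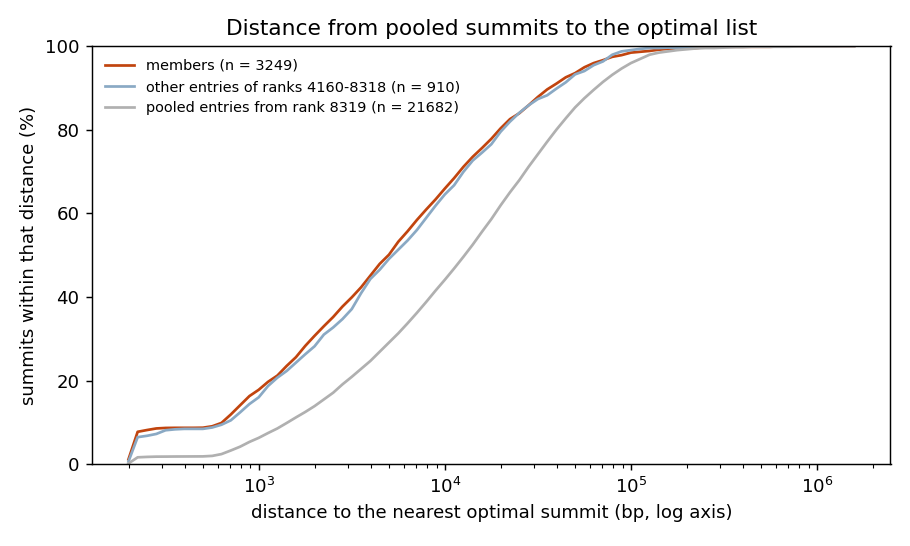
Cumulative share of summits (vertical, percent) by distance to the nearest optimal summit (horizontal, bp, log axis) for members, the other entries of the same ranks and the weak pooled entries. The member curve reaches 17.9% at 1 kb and 50.1% at 5 kb, the curve of the other entries 16.2% and 49.1%, and the curve of weak entries 6.34% and 29.1%.

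The farthest members were promoters. All of the 5 farthest lay at the starts of genes, CG41378, CG40045, Parp1, Alg-2 and eIF4B, between 591133 and 1396170 bp from an optimal summit. Parp1 encodes the poly(ADP-ribose) polymerase and eIF4B a translation initiation factor. These 5 also stood higher in replicate 1: the Alg-2 member ranked 3829 in replicate 1 and 11706 in replicate 2, the Parp1 member 4989 and 10487, and the eIF4B member 6062 and 28304. Of the 52 members over 100 kb from the optimal list, 28 were at promoters (53.8%, interval 40.5 to 66.7), 43 ranked higher in replicate 1, and the median GC content was 34.7%. Of the members 20 to 100 kb away, 24.2% were at promoters. The 3 nearest, at 199 bp, lay in an intron of CG7987, at the promoter of lncRNA:CR43417 and in intergenic space near CG14567.

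Most members lay in gene bodies. These held 2105 members (64.8%), in 1192 genes, and 1485 of these 2105 (70.5%) lay in a gene that also held an optimal summit. No like shares of the genome or of the other lists are given, so both percentages are descriptive. A single member was found in 744 genes, and 88 genes held 5 or more, 570 members in all or 17.5% of the total. Of these 88 genes 82 also held an optimal summit. The 88 genes had a median length of 72.3 kb, against 1.66 kb for all genes, and the part of length in this overlap was not tested. A longer gene holds more summits at the same density, so lengths are given beside the counts. CG43658 held the most, 16 members beside 10 optimal peaks in 105 kb. The gene kirre, which encodes an immunoglobulin cell adhesion protein of myoblast fusion, held 14 members beside 22 optimal peaks in 394 kb. Genes with 11 members each were CG32816, Ten-a, hth, jing, lncRNA:CR44999, pyd and sbb, and Ptp61F held 10. Ten-a encodes a synaptic teneurin, hth a homeodomain cofactor of the Hox proteins, and pyd the fly homologue of the tight junction protein ZO-1. Equal to Ptp61F in count were cv-c, lncRNA:CR44357 and mgl, named here because of the tie. Among the 13 genes with 10 or more members, the density ran from 0.355 members per 10 kb in kirre to 1.52 per 10 kb in CG43658.

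**Figure D4:**
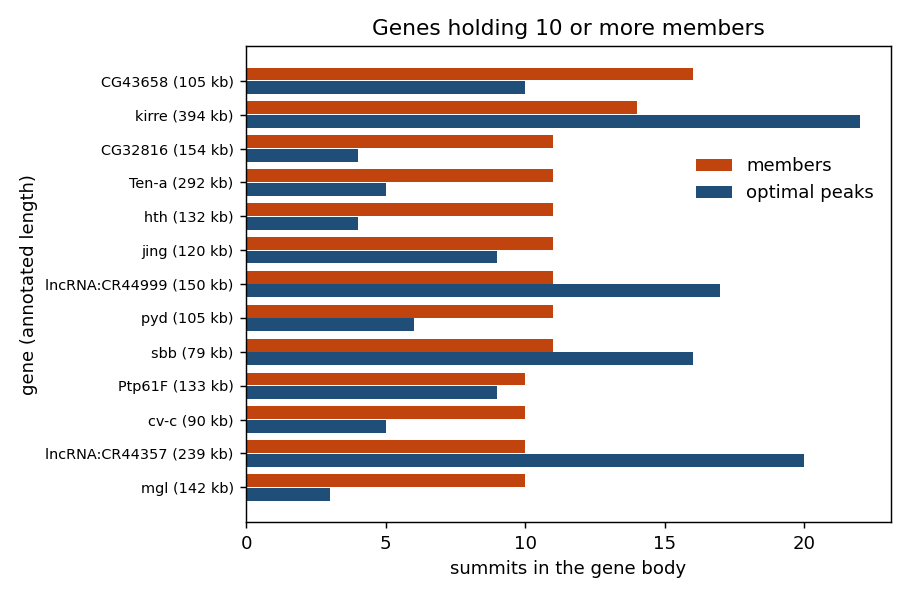
Number of summits in the gene body (horizontal) for the 13 genes that hold 10 or more members, with members above and optimal peaks below for each gene and the annotated length in kb in the label. Member counts run from 10 to 16, and 4 of the genes (kirre, lncRNA:CR44999, sbb and lncRNA:CR44357) hold more optimal peaks than members.

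At promoters the members added 466 protein-coding genes that the optimal list did not reach. A member summit lay at the promoter of 619 of 13945 protein-coding genes (4.44%), and an optimal summit at the promoter of 1821 (13.1%), with 153 genes holding both, which is 24.7% of the 619 and 8.40% of the 1821. Of the 12124 genes without an optimal promoter summit 3.84% had a member one. Leaving out members within 400 bp of an optimal summit left 537 genes, 74 of them with an optimal promoter summit, while asking for recovery in replicate 2 only gave 967 genes. The counts for 34 gene lists below are read against the 4.44% of all protein-coding genes, and none was tested.

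Both ribosomal protein lists had member shares above the 4.44% of all protein-coding genes, on small counts, and the translation factor list had 2.94%. The interval of the cytosolic list includes 4.44%. Of 85 cytosolic ribosomal protein genes 7 had a member promoter summit (8.24%, interval 4.05 to 16), and 65 had an optimal one. The 7 included 5 with an optimal summit at the same gene, and for RpL10, RpL18, RpL5 and RpL39 the member was a shoulder within 207 bp of it. RpL21 and RpS3 had a member and no optimal summit: the RpL21 member lay at −72 bp, 288746 bp from the optimal list, with ranks of 3661 in replicate 1 and 11285 in replicate 2. Of 73 mitochondrial ribosomal protein genes 7 had a member (9.59%, interval 4.72 to 18.5) and 17 an optimal summit, with 1 gene, mRpS22, holding both. The mRpS22 member lay 200 bp from an optimal summit. The members of the others, among them mRpL21 and mRpS18B, lay 1600 to 578805 bp from an optimal summit. Of 34 translation factor genes eIF4B alone had a member, and 8 had an optimal summit. Of 32 proteasome genes Prosalpha3 alone had a member, and of 38 oxidative phosphorylation genes COX7C and ATPsynD did, the ATPsynD summit being that of mRpL55 too.

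Signalling genes had members more often than 4.44% in several lists, on small counts. Of 24 insulin and TOR genes 5 had a member promoter summit (20.8%, interval 9.24 to 40.5), and 5 had an optimal one, with 2 holding both. They were chrb, InR, foxo, Ilp6 and Thor, which encode a TOR inhibitor, the insulin receptor, the transcription factor it restrains, an insulin-like peptide and the translational repressor 4E-BP. The chrb member ranked 5808 in replicate 1 and 4867 in replicate 2, and the InR member ranked 6544 and 5800. The foxo member lay 206 bp from an optimal summit. Of 18 ecdysone response genes 3 had a member, br, usp and Eip74EF. The first and the last are early genes of the hormone, and usp encodes the partner of the ecdysone receptor. The usp summit also lies at the promoter of Actn, the muscle alpha-actinin gene.

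The developmental pathway lists had 1 to 3 genes each. In the Notch list (3 of 23) these were kuz, the protease that cleaves the receptor, Nrt, a cell adhesion protein, and the receptor gene N itself. Their replicate 1 ranks of 18772 to 24002 were far below their replicate 2 ranks of 3977 to 6322. The Wnt and Hedgehog list (3 of 23) had nkd and Apc, both inhibitors of Wnt signalling, and the ligand gene wg, and the BMP and TGF-beta list (3 of 19) had shn, Dad and the receptor gene tkv. The shn member lay 246 bp from an optimal summit. The Hippo list had sav (1 of 16), the JAK-STAT and JNK list Traf4 (1 of 19), and the imaginal disc list C15 and tsh (2 of 31). The Hox and head list had btd (1 of 11), and the list of gut, fat body and GATA factors had bowl (1 of 15).

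Other lists with members were those of differentiated cells and growth. Of 23 neuronal genes 4 had a member (17.4%, interval 6.98 to 37.1) and 1 an optimal promoter summit. They were futsch, a microtubule-associated protein gene, elav and fne, both of RNA-binding proteins of neurons, and ple, which encodes tyrosine hydroxylase. The futsch member ranked 4226 in replicate 1 and 4502 in replicate 2, whereas the elav member ranked 3709 and 28094 and lay 217 bp from an optimal summit. Of 14 glycolysis genes 3 had a member, Eno, Pgk and Ldh, and all 3 also had an optimal summit. Muscle genes with a member were sls, which encodes a titin-like protein, Actn and Act87E (3 of 24), the last 205 bp from an optimal summit, and cell cycle genes were Max, dup and E2f2 (3 of 39). Lists with 2 genes were neuropeptides (Nplp1 and sNPF), immune effectors (PGRP-LB and PGRP-LC) and germ line (stwl and bam), and BEAF-32 and scrib stood alone in the chromatin and polarity lists. The BEAF-32 member lay 208 bp from an optimal summit. No member promoter summit was found for 9 lists: DM-domain genes, mediator and general polymerase II factors, Polycomb and trithorax, heat shock, chemosensory receptors, cuticle proteins, fat body and larval serum, gut digestion, and kirre family. These lists hold 4 to 36 genes, and the upper ends of their intervals run from 9.64% to 49.0%. A count of 0 thus cannot be told from the 4.44% of all protein-coding genes. Of these 9 lists, the mediator list had an optimal summit at 11 of 36 genes, and the fat body list at 8 of 19.

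None of the 4 DM-domain genes had a member at its promoter (interval 0 to 49.0%), and 1 had an optimal promoter summit. With 4 genes this cannot be told from the 4.44% of all protein-coding genes with a member. The nearest member to dmrt93B, the gene of the tagged protein, lay 50092 bp away. The gene dsx held 1 member in its body, at pooled rank 6226 with ranks of 8330 in replicate 1 and 6081 in replicate 2, 17732 bp from the nearest TSS. The nearest member was 24096 bp from dmrt11E and 1991 bp from dmrt99B, which had 4 members within 25 kb.

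Members occurred on the large autosome arms and on the X, at densities from 20.6 to 28.6 per Mb. They numbered 22.9 per Mb on 2L, 20.6 on 2R, 28.6 on 3L, 23.1 on 3R and 27.4 on the X. Density on the X over that on the autosomes was 1.16 for members, 1.22 for the optimal list and 0.918 for weak entries. The X share was 19.9% of members, against 20.6% of the optimal list with an adjusted p of 0.451, and 16.4% of weak entries with an adjusted p of 3.50e-06. Chromosome 4 had 0 members and 8 optimal peaks. It held 5 entries of the members' rank range, of which 5 had a replicate 2 summit and 0 a replicate 1 summit, and its entries numbered 56 in the full list of replicate 1 and 206 in that of replicate 2. A transposable element lay under 12 members.

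Member summits were AT-rich, less so than optimal summits. The window at the summit had a median GC content of 35.6%, with quartiles at 29.7% and 43.6%, against 31.7% in the optimal list, 38.6% in the other entries and 43.6% in the weak entries. The windows centred 500 bp to each side of the members had a median of 43.6%, and the 6 arms together had 42.2%. In the 4 groups of members from the strongest to the weakest, the median was 33.7%, 35.6%, 36.6% and 38.6%. By class it was 37.6% at promoters, 35.6% in introns and 34.7% in intergenic space, where the optimal list had 31.7% in each. Each replicate's own entries of the same ranks had medians of 39.6% for replicate 1 and 37.6% for replicate 2 (38.6% ± 1.40, SD, n = 2), and with a summit in the other replicate and none of the optimal list near, 36.6% in both. The strongest entries had 31.7% in replicate 1 and 32.7% in replicate 2.

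**Figure D5:**
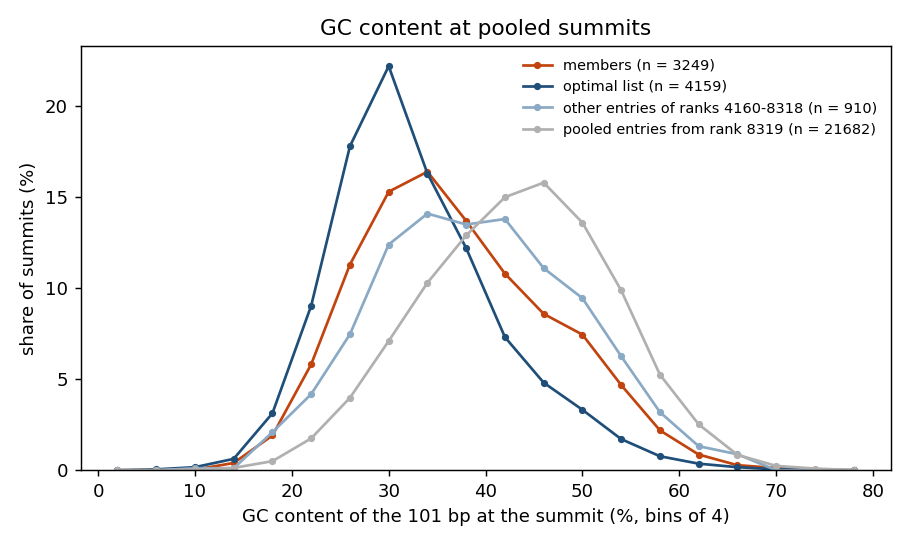
Distribution of GC content at the summit (horizontal, percent, bins of 4) as the share of summits (vertical, percent) for members, the optimal list, the other entries of the same ranks and the weak pooled entries. The member curve, with a median of 35.6%, lies between those of the optimal list (31.7%) and the weak entries (43.6%).

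TTAAAA and TAATTA were less frequent in members than in the optimal list, and the words GAGAGAG and CAGCTG and CACACACA were more frequent. All were searched on both strands, and TTAAAA and TAATTA can overlap, as they do in the Alg-2 sequence. TTAAAA was in 24.4% of members and in 14.9% of the windows beside them, and in 33.8% of the optimal peaks, with an adjusted p of 7.02e-18; it was in 13.6% of windows of this length at all 19252 TSSs. TAATTA was in 8.13% of members and 10.8% of optimal peaks, with an adjusted p of 0.000251. It was in 6.97% of the windows beside members and in 2.99% of the TSS windows. GAGAGAG, the letters bound by the GAGA factor, was in 1.63% of members and 0.842% of optimal peaks, with an adjusted p of 0.00440, and in 2.26% of the windows beside members. CAGCTG was in 3.76% against 2.62%, with an adjusted p of 0.0103, and CACACACA in 1.66% against 1.01%, with an adjusted p of 0.0279. Both were more frequent beside the members, in 4.56% and 3.43% of those windows. The core promoter words TATCGATA and GGTCACAC were in 0.554% and 0.400% of members, against 0.986% and 0.697% of optimal peaks, with adjusted p-values of 0.0666 and 0.149. Both words were less frequent beside the members, in 0.169% and 0.185% of those windows. They were in 4.48% and 4.68% of TSS windows, an unlike reference because most members were not at promoters. CAGCTG was in 8.77% of the TSS windows and GAGAGAG in 1.54%. The base composition of members and optimal peaks differs too, and its part in these differences was not tested.

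The sites of DM-domain proteins were rare in the members. ACAATGT or ACATTGT or TGTATCA was in 93 members (2.86%, interval 2.34 to 3.49), against 140 optimal peaks (3.37%), with an adjusted p of 0.279. The windows beside the members had 2.39%, and all TSS windows 2.07%. In a window about 2 times as wide the share was 5.42% in members and 6.66% in the optimal list, with an adjusted p of 0.0423. The same words read backwards (TGTAACA or TGTTACA or ACTATGT) were in 2.22% of members and 3.01% of optimal peaks, with an adjusted p of 0.0604, and in 1.76% of TSS windows. They were in 1.63% of the windows beside the members. The ratio of members to those windows was 1.36 for the backwards words and 1.20 for the DM-domain sites. Of each replicate's own entries of the same ranks, 2.40% held a DM-domain site for replicate 1 and 2.33% for replicate 2 (2.37% ± 0.0510, SD, n = 2).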

How the data were processed

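Transcription factor ChIP-seq of 2 replicates of 1 group was analysed from 4 deposited peak lists in dm6, per the labels. The authors deposited 1 relaxed list per replicate, 1 for the pooled replicates, each of 30000 entries, and the optimal list of 4159. The values used were the peak signal written by the authors' caller, used only within a list, the deposited −log10 q value, and the deposited start, end and summit positions. Both replicate lists were made against 1 control file, per the labels' notes, and that library was not analysed here. Read depth, aligner, caller and reproducibility threshold: not given in the sources used here.

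The pooled ranks taken were 4160 to 8318, weak entries began at rank 8319, and the range was split after rank 6238 where stronger and weaker members are set apart. Sequence windows were 101 bp, or 201 bp as an alternative. Summits were placed by the Ensembl annotation, release 115, without its transposable element genes, and sequences came from the NCBI Release 6 assembly, the same build as dm6. A summit within 500 bp of a TSS was a promoter, and the rest went to the first of these that held them: 5′ UTR, coding exon, 3′ UTR, another exon, an intron, or intergenic space. A member's replicate rank is that of the best-ranked summit within 200 bp. Shares were compared with two-sided Fisher's exact tests, adjusted over 38 tests at 0.05, with 95% Wilson intervals that cover counting error only. Values per replicate are given with their SD and without a test. Gene list counts, medians and quartiles were given without a test. Members, gene lists, motifs and comparisons were chosen with earlier results of these data known. Of 743 listed gene symbols 716 matched the annotation. The counts of 1 list are not reported here.

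Members were named by a rule: both ends of the rank range, the 10 best in both replicates, up to 3 genes per list, the 10 genes with the most members, the 5 farthest and 3 nearest, and the DM-domain genes. Other names are marked or complete a short count. Of the sequences set by the rule, those of 4 more shoulders of optimal peaks were not printed, and the trx, HERC2, Alg-2 and eIF4B sequences and the optimal tna summit were chosen after values were seen. Alternatives changed the recovery distance, the rank range, the promoter window, the motif window and the replicates required. Scripts were tested on simulated data. The tools were matplotlib 3.10.9, pandas 2.3.3, scipy 1.17.1, numpy 2.4.6 and Python 3.11.15.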

Additional observations from a re-analysis of the deposited data

How the results depend on the processing

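The promoter difference between members and the optimal list kept its direction and its call under all 13 alternatives run. Without 1 replicate in the recovery rule it ranged from −18.6 to −13.6 points. The promoter difference between members and the other entries was −21.8 points. It was 3.10 points without replicate 1 and −29.3 without replicate 2, and 2.44 against entries that lacked only a replicate 2 summit, a comparison chosen after seeing the data. The coding exon difference of 0.669 points was 0.0395 in the stronger ranks (adjusted p 0.776, against 8.02e-08 to 0.00379 in the others), and 0.598 to 0.732 without 1 replicate. The X difference of −0.778 points was not called in any alternative and ranged from −1.30 to 0.181 without 1 replicate. The share within 1 kb of an optimal summit, 1.70 points above the other entries and not called, was −2.55 with recovery within 100 bp (adjusted p 0.0572), 4.40 within 500 bp (0.00718), 3.86 by overlap of intervals (0.0174), −0.0500 in the weaker ranks, and 0.691 to 4.28 without 1 replicate. The DM-domain difference of −0.504 points was −1.24 in the wider window, with an adjusted p of 0.0423 against 0.116 to 0.727 in its other alternatives, and −0.688 to −0.621 without 1 replicate. The cause of these changes was not tested.

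The number of members was 1725 in the stronger ranks and 1524 in the weaker ranks, which each hold part of the range by construction, and 3461 to 3921 without 1 replicate. Genes with a member promoter numbered 374 and 263 in those ranks, 399 with a window of 250 bp, and 656 to 967 without 1 replicate. The median GC content was 37.6% in the weaker ranks, and 35.6% to 36.6% without 1 replicate. The median distance to the optimal list stayed between 4449 and 5900.0 bp in its 9 alternatives. Depth is unknown, so an entry absent from a replicate list cannot be told from one too shallow to be listed.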
